A study of Mus musculus with 6 samples.

Results

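The genes described here are the IL-6, oncostatin and IL-24 cytokine axis, 10 of the 26167 genes listed in the tables of 3 control and 3 Sora-treated Hepa1-6 tumors. They were found by exact symbol and are 6 cytokines (Il6, Osm, Lif, Il11, Il19, and Il24), 2 receptor subunits (Osmr and Il6st), the transcription factor Stat3, and the feedback inhibitor Socs3. Osm and Il24 were picked because they were higher in the Sora-treated tumors of these data, so their differences are given as a description with no test, and the other 8 were chosen by family or role. Hepa1-6 is a mouse hepatoma cell line, written Hep1-6 in the sample labels, that was grown under the skin of C57BL/6J mice. The mice were female and were bought at 6 to 8 weeks of age. Sorafenib (Sora) inhibits several kinases. The treated mice were given 4 ip doses of 10 mg/kg, on day 9 after the cells were injected (day 0) and then on day 11, day 13, and day 15. The labels number the control tumors 1, 3, and 4 and the Sora-treated tumors 2, 3, and 4, and they describe the control tumors only as control. Each library was made from total RNA of whole tumor tissue, which holds hepatoma cells together with the immune, stromal, and skin cells around them. A cell type that is fewer in number and a cell type with less RNA of a gene per cell cannot be told apart in such libraries.

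Il6, oncostatin (Osm), Lif, and Il11 are secreted cytokines that signal through receptor complexes built on a common subunit, gp130, which is encoded by Il6st. Binding of the ligand activates JAK kinases, which phosphorylate Stat3, and Stat3 then enters the nucleus and turns on genes that include its own inhibitor, Socs3. Il19 and Il24 belong to the IL-20 branch of the IL-10 family, whose members use other receptors and also activate Stat3. In liver, IL-6 signaling is the classical inducer of the acute-phase proteins.

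Between 31073830 and 36205814 reads were counted in a tumor, and 16513 genes passed a minimum of 10 counts in at least 3 tumors. All 10 axis genes passed, but Il19 did so only through the Sora-treated tumors, since 0 of the 3 control tumors reached 10 counts. The counts of Sora-treated tumor 4 were recovered from its FPKM, as only 5 tumors have a column of counts here. The first principal component of the genes that passed held 43.1% of the variance. On it, Sora-treated tumor 3 lay at 2.69, nearer to the control tumors (-20.5 to -11.1) than Sora-treated tumors 2 and 4 did (22.5 and 21.1). Afp, a marker of hepatoma cells, had means of 877 CPM (counts relative to a library size that was scaled by TMM) in control tumors and 827 CPM in Sora-treated tumors, whereas Ahsg, another gene of liver cells, stayed at 0.154 and 0.0620 CPM.

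On CPM, every Sora-treated tumor lay above every control tumor for 6 of the 10 axis genes (Il6, Osm, Lif, Il19, Il24, and Socs3), of which 4 had not been picked for a rise. Among all genes tested, 10.6% were separated in that direction and 11.6% in the other. Nothing is read from the count, since Il24 and Osm were chosen from this contrast and Il19 passed the filter only through the treated tumors. Il6st was the 1 axis gene with every Sora-treated tumor below every control tumor on CPM, though not on FPKM, and the groups overlapped on CPM for Il11, Osmr, and Stat3. Of the 8 genes not picked for a rise, 0 passed an adjusted p of 0.05 in edgeR. DESeq2, which gave no adjusted p for Il19, called 2 of them, Lif and Socs3. At an unadjusted p under 0.05 in edgeR were 5 of the 8, or 4 of 7 without Il19, beside 17.2% of all genes tested. In edgeR 1.94% of the genes tested were called higher and 1.34% lower, and in DESeq2 4.0% were called higher. The median log2 fold change was 0.40 over the 7 axis genes left without Il24, Osm, and Il19, beside -0.00037 over all genes tested, and 5 of the 7 were above 0. The axis genes and the gene lists below were chosen with earlier results of these data known, so such shares and medians are a description.

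**Figure D1:**
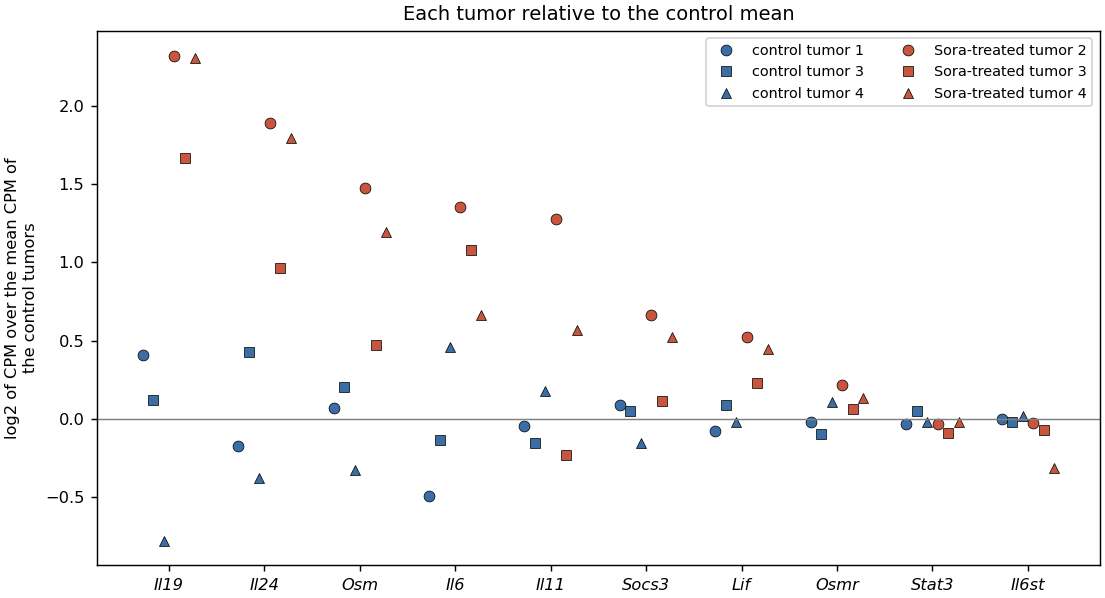
Level of each axis gene in each tumor, as the log2 ratio of its CPM to the mean CPM of the 3 control tumors, with 1 point per tumor and genes ordered by fitted log2 fold change. Il19, Il24, and Osm reach 2.32, 1.89, and 1.47 in Sora-treated tumor 2, and Sora-treated tumor 3 (red squares) is the lowest of the treated tumors for Il19, Il24, Osm, Il11, Socs3, Lif, Osmr, and Stat3.

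The promoters of the axis genes were read from RefSeq (GRCm38.p6), which matched 8 of the 10 by symbol, with 9 start sites since Il11 has 2. Osm and Il24 were not matched. Windows of 300 bases, from 250 before to 50 after the start, were searched on both strands for the palindrome TTCNNNGAA, the core bound by STAT proteins, and for the AP-1 motif TGANTCA, both of which read the same on either strand and were counted separately. The STAT palindrome was found in 8.30% of the 32851 promoters and in those of Il19 and Socs3, and the AP-1 motif in 7.81% of promoters and in those of Il6, Il11, Lif, and Osmr. A match is a description of the sequence and does not show that a factor bound there. The 250 bases before the start are printed for the 4 separated genes of this set and for Il11, with the motif in capitals, each 5′ to 3′ on the strand of its gene.
Socs3, chr11:117969367-117969616, minus strand: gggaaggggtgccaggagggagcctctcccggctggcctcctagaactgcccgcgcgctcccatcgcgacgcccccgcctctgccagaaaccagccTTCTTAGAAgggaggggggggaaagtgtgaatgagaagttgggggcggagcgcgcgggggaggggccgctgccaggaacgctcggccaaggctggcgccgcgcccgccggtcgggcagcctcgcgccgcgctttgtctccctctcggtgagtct
Il19, chr1:130940116-130940365, minus strand: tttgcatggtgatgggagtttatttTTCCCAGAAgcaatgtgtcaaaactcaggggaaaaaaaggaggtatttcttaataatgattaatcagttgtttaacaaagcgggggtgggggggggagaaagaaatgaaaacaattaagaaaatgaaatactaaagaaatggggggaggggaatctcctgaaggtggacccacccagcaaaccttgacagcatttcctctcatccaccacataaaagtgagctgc
Il6, chr5:30012864-30013113, plus strand: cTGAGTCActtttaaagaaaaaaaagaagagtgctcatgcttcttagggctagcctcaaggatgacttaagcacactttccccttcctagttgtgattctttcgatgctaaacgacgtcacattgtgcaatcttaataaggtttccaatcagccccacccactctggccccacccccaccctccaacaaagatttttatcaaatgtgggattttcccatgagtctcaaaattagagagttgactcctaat
Lif, chr11:4257318-4257567, plus strand: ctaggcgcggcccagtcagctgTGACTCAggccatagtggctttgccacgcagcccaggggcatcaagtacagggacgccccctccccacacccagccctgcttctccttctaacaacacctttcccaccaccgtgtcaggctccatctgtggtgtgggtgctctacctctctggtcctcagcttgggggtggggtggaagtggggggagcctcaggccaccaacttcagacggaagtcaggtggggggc
Il11, chr7:4778142-4778391, minus strand: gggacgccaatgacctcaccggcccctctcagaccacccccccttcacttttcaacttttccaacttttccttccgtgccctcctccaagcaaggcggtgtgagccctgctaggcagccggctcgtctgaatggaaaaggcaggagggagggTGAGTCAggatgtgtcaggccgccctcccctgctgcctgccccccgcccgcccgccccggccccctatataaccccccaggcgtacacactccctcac
The STAT palindrome began 154 bases before the start of Socs3 and 225 bases before that of Il19. The AP-1 motif began 249, 228, and 98 bases before the starts of Il6, Lif, and Il11. The window of the other start of Il11 held neither motif.

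Levels can be compared between genes on FPKM, which corrects each count for the length of the gene and the size of the library. In control tumors, Stat3 had the highest level of the axis at 55.9 ± 0.558 FPKM (SD, n = 3 in each group throughout), followed by Il6st at 40.0 ± 1.37 and Socs3 at 35.3 ± 3.29 FPKM. Il11 and Osmr followed at 11.4 ± 1.49 and 11.3 ± 0.984 FPKM, and Lif was at 3.85 ± 0.133 FPKM. Osm and Il24 stood at 1.92 ± 0.331 and 1.92 ± 0.534 FPKM. The lowest were Il6 at 0.385 ± 0.132 FPKM and Il19 at 0.118 ± 0.0460 FPKM. The ranges over control tumors overlapped between Il6st and Socs3, between Il11 and Osmr, and between Osm and Il24, and the other neighbors in this order were separate.

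In Sora-treated tumors the order of levels differed at 2 places. Socs3 at 47.9 ± 8.86 FPKM moved ahead of Il6st at 36.3 ± 4.51 FPKM, and Il24 at 5.81 ± 1.79 FPKM moved ahead of Lif at 5.07 ± 0.514 and Osm at 4.10 ± 1.34 FPKM. Neither place was clear of the spread between tumors, since the ranges of Socs3 and Il6st overlapped, as did those of Il24 and Lif and those of Lif and Osm. The range of Socs3 also overlapped that of Stat3, at 53.8 ± 1.01 FPKM. Il11 and Osmr again overlapped, at 17.9 ± 9.06 and 12.3 ± 0.712 FPKM, and Il6 at 0.798 ± 0.199 FPKM overlapped Il19 at 0.511 ± 0.117 FPKM.

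**Figure D2:**
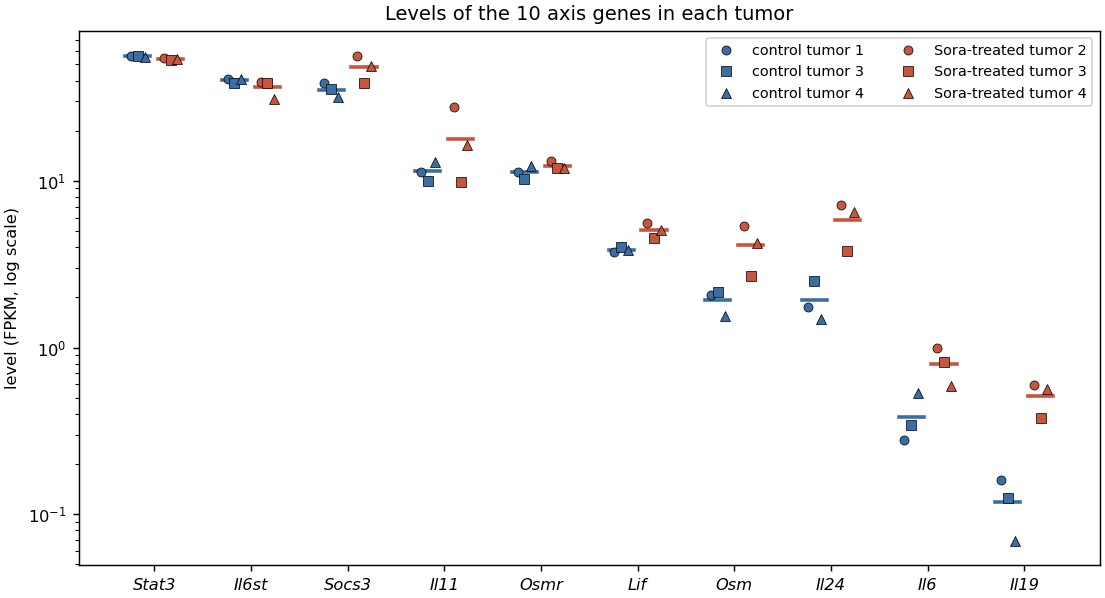
FPKM of the 10 axis genes in each tumor on a log scale, with points for tumors and bars for group means, ordered by the mean of the control tumors. Stat3, Il6st, and Socs3 lie above 30 FPKM in every tumor, and Il6 and Il19 lie below 1 FPKM in every tumor.

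Il24, a cytokine known from skin and wound healing, had the largest difference among the axis genes that were detected at 10 counts in every tumor. Control tumors 1, 3, and 4 gave 62, 95, and 61 counts of Il24, whereas Sora-treated tumors 2, 3, and 4 gave 252, 142, and 250 counts. The treated tumors were all higher, and Sora-treated tumor 3 lay nearest to the controls. Mean CPM was 2.17 ± 0.656 in control tumors and 6.61 ± 2.08 in Sora-treated tumors, with a log2 fold change of 1.61 (SE 0.30), about 3.04-fold. On FPKM the ratio of the group means was 3.02. When any 1 tumor was left out, the log2 fold change lay between 1.44 and 1.87.

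Il19, which lies near Il24 on chromosome 1 and is a ligand of the same receptor family, was read at low depth. The control tumors gave 6, 5, and 3 counts, whereas the Sora-treated tumors gave 22, 15, and 23 counts. Every treated tumor was higher, and no control tumor reached 10 counts. The log2 fold change of 2.11 (SE 0.51) had an edgeR adjusted p of 0.052, at 0.141 ± 0.0534 CPM in control tumors and 0.614 ± 0.146 CPM in Sora-treated tumors. Since Il19 passed the filter only through the group in which it was high, it supports no count over the axis. Il10, which lies in the same cluster on chromosome 1, was at 0.883 ± 0.103 and 0.677 ± 0.258 CPM, and its log2 fold change was -0.38 (edgeR adjusted p = 0.70).

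Il20ra, a receptor chain of the IL-20 family, was at 0.412 FPKM in control and 0.498 FPKM in Sora-treated tumors, and its partner Il20rb was at 2.33 and 2.16 FPKM, with edgeR adjusted p of 0.75 and 0.90. Il22ra1, which pairs with Il20rb in a second receptor for Il24, was at 2.15 and 2.78 FPKM, with a log2 fold change of 0.38 (edgeR adjusted p = 0.12). On CPM every Sora-treated tumor was above every control tumor for Il22ra1, at 14.8 to 17.8 beside 11.5 to 14.0. Of the 5 tested receptors of the IL-10 and IL-20 families, edgeR called 0, beside 3.29% of all genes tested. In edgeR 3 of the 5 were at an unadjusted p under 0.05, beside 17.2% of all genes tested. DESeq2 called Il10ra lower, as 1 of 575 genes called lower over all genes. Il10ra, the ligand-binding chain of the IL-10 receptor, was lowest of the list at -0.34 on the log2 scale (edgeR adjusted p = 0.064). The median log2 fold change of the 5 was -0.09.

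Osm is a gp130 cytokine made mainly by activated myeloid and T cells. Control tumors 1, 3, and 4 gave 120, 134, and 104 counts of Osm, whereas Sora-treated tumors 2, 3, and 4 gave 310, 166, and 270 counts. Sora-treated tumors 2 and 4 had more than any control tumor by a wide margin, and tumor 3 was only just higher, at 4.94 CPM beside 4.11 CPM in control tumor 3. Group means were 3.57 ± 0.648 and 7.66 ± 2.52 CPM, and the log2 fold change was 1.10 (SE 0.26), about 2.15-fold. It ranged from 0.88 to 1.34 when any 1 tumor was left out.

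Lif, which lies next to Osm on chromosome 11 and signals through Lifr and gp130, had 20.3, 22.8, and 21.2 CPM in the controls, compared with 30.9, 25.1, and 29.2 CPM after Sora treatment. The groups did not overlap, and the smallest gap lay between Sora-treated tumor 3 and control tumor 3. The log2 fold change was 0.40 (SE 0.10), with an adjusted p of 0.055 in edgeR and of 0.017 in DESeq2. Leaving out each tumor in turn, edgeR called Lif in 1 of 6 fits, without Sora-treated tumor 3 (0.48, adjusted p = 0.016), and gave an adjusted p of 0.078 to 0.21 in the other 5.

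Il6, the cytokine for which the family is named, was among the least abundant axis genes, with counts of 10, 13, and 22 in the controls, compared with 35, 31, and 23 after Sora treatment. All treated tumors were higher, but Sora-treated tumor 4, at 0.694 CPM, was close to control tumor 4, at 0.603 CPM. With a log2 fold change of 1.04 (SE 0.42), Il6 did not pass the test (edgeR adjusted p = 0.22). At these counts, counting error is a large share of the spread between tumors.

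Il11, a gp130 cytokine made by stromal and epithelial cells, was uneven among the treated tumors. It stood at 26.5, 24.6, and 31.0 CPM in the controls, whereas Sora-treated tumors 2, 3, and 4 had 66.3, 23.4, and 40.5 CPM. Tumor 3 was lower than every control tumor, tumor 2 was the highest of all, and the groups overlapped. The log2 fold change was 0.66 (SE 0.28, edgeR adjusted p = 0.25). It was 0.96 without Sora-treated tumor 3 (edgeR adjusted p = 0.014) and 0.22 without Sora-treated tumor 2 (edgeR adjusted p = 0.74), so these 2 libraries set its size.

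With the axis genes included, 8 of 11 listed gp130 cytokines and subunits of such ligands were tested. Of the 7 other than Osm, which was picked for its rise, 5 were higher and 2 lower, with a median log2 fold change of 0.40. Of these 7, edgeR called 0, with 4 at an unadjusted p under 0.05 beside 17.2% of all genes tested, and DESeq2 called Lif, beside 4.0% of all genes called higher. Clcf1, a ligand that signals through gp130 and Lifr, was at 21.3 ± 1.23 CPM in control and 26.0 ± 1.11 CPM in Sora-treated tumors, with no overlap between the groups (log2 fold change 0.29, edgeR adjusted p = 0.11). Il27, a subunit of the IL-27 cytokine, had the lowest value of the list, at -0.46 (edgeR adjusted p = 0.61).

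**Figure D3:**
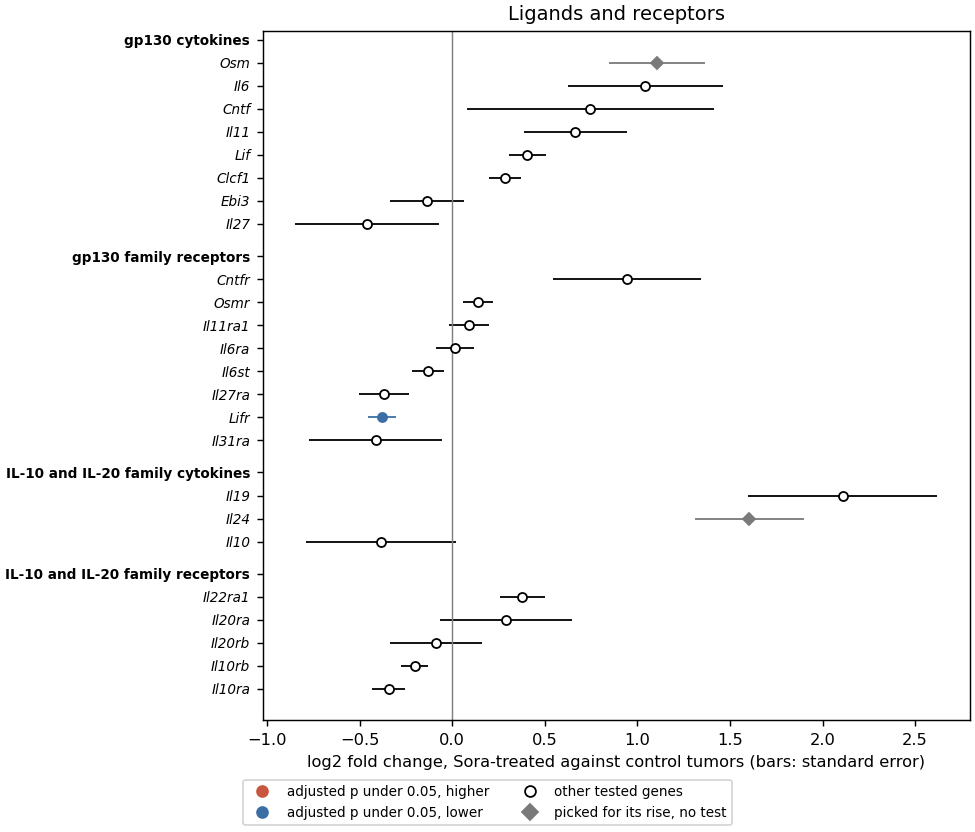
Fitted log2 fold change of the tested genes of the ligand and receptor lists, Sora-treated against control tumors, with bars for the standard error. In edgeR no ligand shown passed the test and Lifr is the 1 called receptor at -0.38, whereas DESeq2 also called Lif and Il10ra, and Il24 and Osm (diamonds) carry no test.

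Summed over the 9 listed gp130 cytokine genes in the table, the level was 35.7, 32.5, and 35.5 FPKM in the controls, compared with 58.7, 36.9, and 44.5 FPKM after Sora treatment. The treated tumors were all above the controls, but tumor 3 only just, and the means were 34.6 ± 1.80 and 46.7 ± 11.1 FPKM. Without Osm, the sum was 32.6 ± 2.01 in control and 42.6 ± 9.81 FPKM in Sora-treated tumors. Il11 made up 32.9% of the control sum and 36.8% of the Sora-treated sum, and Clcf1 made up 32.7% and 30.2%. The shares of Lif were 11.2% and 11.1%, and those of Osm were 5.59% and 8.65%. The 4 IL-10 and IL-20 family cytokines in the table summed to 2.46 ± 0.554 and 6.66 ± 1.93 FPKM, and Il24 made up 77.5% and 86.8% of that. Without Il24, that sum was 0.542 ± 0.0997 FPKM in control and 0.850 ± 0.188 FPKM in Sora-treated tumors. The difference rests on Il19, which passed the filter only through the treated tumors and was at 0.118 and 0.511 FPKM, whereas Il10 was at 0.424 and 0.324 FPKM (edgeR adjusted p = 0.70).

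**Figure D4:**
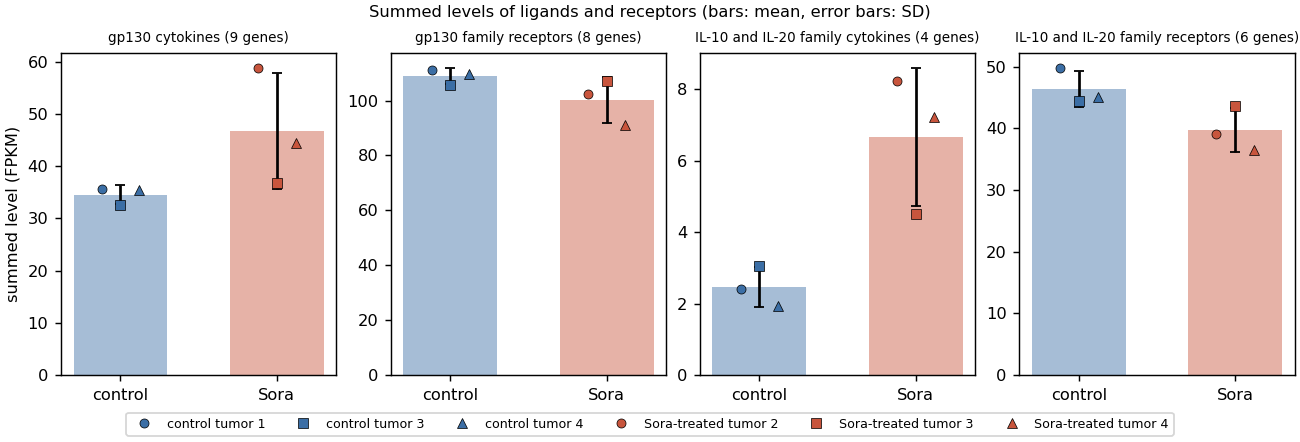
Summed FPKM of 4 lists of ligands and receptors in each tumor (points), with bars for group means and error bars for the SD. Both ligand sums, which include the picked genes Osm and Il24, are above the controls in every Sora-treated tumor, while the sum of gp130 family receptors overlaps and that of the IL-10 and IL-20 family receptors is lower, at 39.7 FPKM beside 46.4 FPKM.

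Neither receptor subunit of the axis passed the test. Osmr, which joins gp130 to form the receptor of oncostatin, had 60.1, 57.1, and 65.9 CPM in the controls, compared with 70.9, 63.9, and 66.8 CPM after Sora treatment. The groups overlapped, and the log2 fold change was 0.14 (SE 0.08, edgeR adjusted p = 0.42). Il6st had 228, 225, and 231 CPM in the controls, compared with 224, 217, and 184 CPM after Sora treatment. Sora-treated tumor 4 stood apart as the lowest, and the log2 fold change was -0.13 (SE 0.09, edgeR adjusted p = 0.48). On FPKM, which are scaled by the total count alone, the groups of Il6st overlapped, since Sora-treated tumor 2 at 39.4 FPKM was above control tumor 3 at 38.5 FPKM.

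Lifr, the partner of gp130 in the receptor of Lif, was the only called gene of the 8 gp130 family receptors. It had 262, 268, and 290.1 CPM in the controls, compared with 198, 223, and 209 CPM after Sora treatment, with no overlap between the groups. Its log2 fold change was -0.38 (SE 0.08, edgeR adjusted p = 0.029), and it passed the threshold in 1 of the 6 fits that left out a tumor. Il6ra, the binding chain for Il6, was at 9.80 ± 0.733 and 9.82 ± 1.43 FPKM (edgeR adjusted p = 0.97). Il11ra1, the binding chain for Il11, was at 17.9 ± 2.19 and 18.9 ± 1.84 FPKM (edgeR adjusted p = 0.73). Cntfr was the highest of the list at a log2 fold change of 0.94 (edgeR adjusted p = 0.25) and Il31ra the lowest at -0.41 (edgeR adjusted p = 0.62), and the median of the 8 was -0.06. Their sum was 109 ± 2.90 and 100.3 ± 8.38 FPKM with overlapping groups, while on CPM every Sora-treated tumor was lower, at 534 to 595 beside 635 to 664.

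Stat3 differed least. It had 250.4, 266, and 253 CPM in the controls, compared with 251, 241, and 253 CPM after Sora treatment. The groups overlapped on CPM, and the log2 fold change was -0.04 (SE 0.07, edgeR adjusted p = 0.80). On FPKM every Sora-treated tumor was below every control tumor, at 53.0 to 54.9 beside 55.4 to 56.5. These values are of Stat3 RNA and carry no information on phosphorylation of the protein. Among 11 JAK and STAT genes, edgeR called 0, beside 3.29% of all genes tested, and 3 were at an unadjusted p under 0.05, beside 17.2%. DESeq2 called Jak2, beside 4.0% of all genes called higher. Jak2, a kinase bound to gp130, was the highest at 352 ± 9.85 and 431 ± 20.0 CPM (log2 fold change 0.29, edgeR adjusted p = 0.056), and Stat2, a transcription factor of interferon signaling, was the lowest at 116 ± 3.39 and 95.8 ± 12.5 CPM (log2 fold change -0.28, edgeR adjusted p = 0.14).

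Socs3, the inhibitor that Stat3 induces and that binds gp130, had 102, 99.4, and 86.6 CPM in the controls, compared with 152, 104, and 138 CPM after Sora treatment. Sora-treated tumors 2 and 4 were clearly higher, and tumor 3, at 104 CPM, was barely above control tumor 1. The log2 fold change was 0.45 (SE 0.13), with an adjusted p of 0.080 in edgeR and of 0.0064 in DESeq2. Of the 6 fits that left out a tumor, 1 passed in edgeR, without Sora-treated tumor 3 (0.59, adjusted p = 0.0071), and the other 5 had adjusted p of 0.13 to 0.28. Of the 15 JAK-STAT inhibitors, Socs3 was the highest, and the median of the list was 0.0010. The lowest was Socs1, an inhibitor best known from interferon signaling, at -0.30 (edgeR adjusted p = 0.32). In edgeR 0 of the 15 were called, beside 3.29% of all genes tested, and 2 had an unadjusted p under 0.05, beside 17.2%. DESeq2 called Socs3, beside 4.0% of all genes called higher.

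Among 22 genes known as STAT3 targets, 15 were higher and 7 lower, with a median log2 fold change of 0.17. In edgeR 2 were called and 7 had an unadjusted p under 0.05, all 7 higher, and DESeq2 called 5 higher (Bcl2l1, Junb, Lrg1, Pim3, and Timp1). Of all genes tested, 1.94% were called higher in edgeR, 17.2% had an unadjusted p under 0.05 in either direction, and 4.0% were called higher in DESeq2. Junb, a subunit of AP-1, and Lrg1, a secreted glycoprotein, were up-regulated. Junb was at 238 ± 40.4 CPM in control and 370.4 ± 35.9 CPM in Sora-treated tumors (log2 fold change 0.64, SE 0.12, edgeR adjusted p = 0.021). Lrg1 was at 6.90 ± 1.04 and 13.3 ± 1.61 CPM (log2 fold change 0.95, SE 0.15, edgeR adjusted p = 0.014). The lowest was Batf, an AP-1 family factor of lymphocytes, at -0.24 (edgeR adjusted p = 0.57). Without Sora-treated tumor 4 the adjusted p was 0.12 for Junb and 0.062 for Lrg1 in edgeR.

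The acute-phase genes were called in both directions. Of 13 tested among 19 listed, edgeR called 2 higher and 3 lower, beside 1.94% and 1.34% of all genes tested, and the median log2 fold change was -0.21. Lcn2, an iron-scavenging protein of neutrophils and epithelia, rose from 2.20 ± 0.10 to 5.13 ± 0.849 CPM, and Hp, the hemoglobin scavenger haptoglobin, rose from 40.1 ± 8.36 to 67.8 ± 8.09 CPM. Lbp, which binds lipopolysaccharide, fell from 280.2 ± 33.6 to 172 ± 35.9 CPM, and the complement protein C3 fell from 1812 ± 190 to 1256 ± 79.6 CPM. Cp, the copper carrier ceruloplasmin, fell from 251 ± 57.6 to 137 ± 14.2 CPM. Their edgeR adjusted p were 0.019, 0.021, 0.024, 0.021, and 0.015, and for all 5 genes the groups did not overlap. Saa3, an acute-phase protein of macrophages and epithelia, was at 19.3 ± 1.51 and 39.0 ± 18.7 CPM (log2 fold change 1.02, edgeR adjusted p = 0.055), with Sora-treated tumor 4 far above the others at 60.5 CPM. Without Sora-treated tumor 4, edgeR called 0 of the pathway genes, with 16 higher and 8 lower at an unadjusted p under 0.05. Over all 16319 genes tested in that fit, 4 were called higher and 1 lower, with 998 and 946 at an unadjusted p under 0.05.

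**Figure D5:**
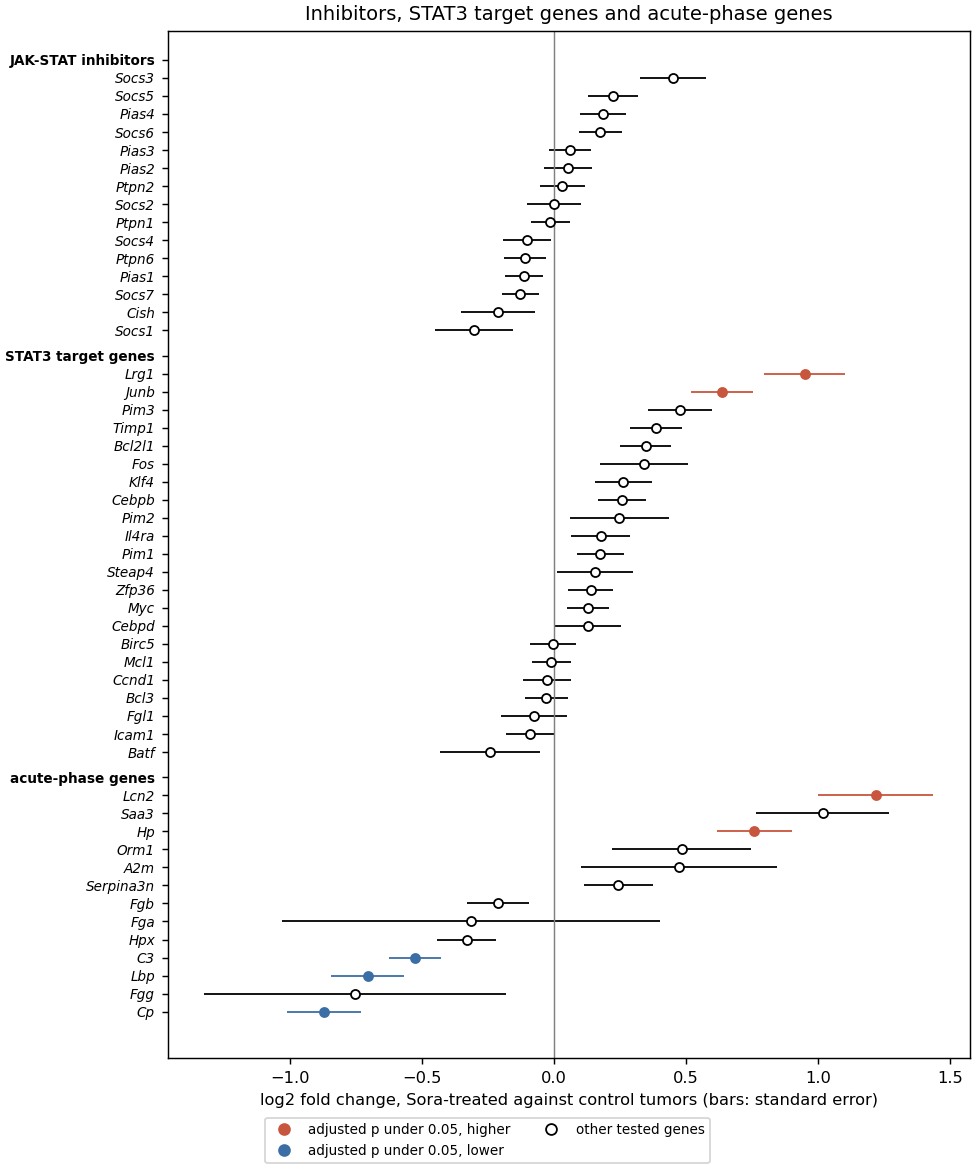
Fitted log2 fold change of the tested JAK-STAT inhibitors, STAT3 target genes, and acute-phase genes, with bars for the standard error. Filled points passed an edgeR adjusted p of 0.05, with Junb, Lrg1, Lcn2, and Hp to the right of 0 and Lbp, C3, and Cp to the left, and Socs3 heads its list at 0.45.

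Over the 8 pathway lists without Il24 and Osm, 83 genes were tested, of which 4 were called higher and 4 lower in edgeR, beside 1.94% and 1.34% of all genes tested, and their median log2 fold change was 0.05. Among the axis genes themselves, the order of the treated tumors was the same for 7 (Osm, Lif, Il11, Il19, Il24, Osmr, and Socs3), with Sora-treated tumor 2 highest and tumor 3 lowest. Sora-treated tumor 3 was the lowest treated tumor for 5 of the 6 separated axis genes and for 58.8% of the 1758 genes separated in that direction.

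Genes with the most similar profile were sought among 14111 tested genes with a mean of at least 1 CPM, by Pearson correlation of log2(CPM + 1) over the 6 tumors. The correlation spans both groups, so a difference between the groups alone raises it, and it is given as a description. The genes most like Il24 were Csrnp1 (r = 0.994), Glod5 (0.994), Ier5l (0.993), Lmcd1 (0.993), and Niban2 (0.993), and 188 genes exceeded 0.95. Those most like Osm were Slc52a2 (r = 0.998), Arhgef1 (0.997), Gm11946 (0.995), Vasp (0.994), and Glod5 (0.993), and 129 genes exceeded 0.95. With 6 tumors and this many near-equal values, neighbors in these orders are not distinguished.

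Markers of cells that make or receive these cytokines also differed between the groups, and their part in the values above was not tested. The summed CPM of 12 neutrophil markers overlapped, at 300.4 to 377 in control and 321 to 378 in Sora-treated tumors, of which Mmp9 alone was 217 to 281 CPM in control and 175 to 249.7 CPM in Sora-treated tumors. The sum of the other 11 was higher in every Sora-treated tumor, at 118 to 182 beside 83.0 to 95.4, but leaving out Mmp9, which was lower, was chosen after the values were seen. Of 10 neutrophil markers tested, 7 were higher, with a median log2 fold change of 0.56, and 4 (S100a9, Csf3r, Mmp8, and Il1r2) were above every control tumor in each treated one, beside 10.6% of all genes tested. The 3 others, Mmp9, Ngp, and Ltf, had log2 fold changes of -0.23, -1.23, and -0.39 (edgeR adjusted p = 0.41, 0.69, and 0.77). Only S100a9 was called in edgeR (log2 fold change 1.21, adjusted p = 0.042), with an adjusted p of 0.053 in DESeq2, and it passed in 1 of the 6 fits that left out a tumor. Of the markers that define neutrophils, Ly6g was at 0.0893 to 0.332 CPM over the 6 tumors, and Camp had a mean of 0.487 CPM in control and 0.0852 CPM in Sora-treated tumors, with 0 in Sora-treated tumors 3 and 4. The summed CPM of 12 macrophage markers was lower in every Sora-treated tumor, at 1849 to 2197 and 1561 to 1804, with 10 of the 12 below 0 on the log2 scale and Mertk called (-0.45, edgeR adjusted p = 0.031). The 11 T cell markers in the table were likewise lower, at 298 to 335 and 232 to 251, with all 11 below 0 and Cd8b1 and Cd6 called. These 3 cell types are known sources of Osm.

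Keratinocyte and skin markers, which bear on Il24 and Il19, varied widely, at 367 to 1213 summed CPM in control and 776 to 1119 in Sora-treated tumors. All 12 had log2 fold changes above 0 and edgeR called 0 of them, with overlapping groups for each. Fibroblast markers were lower in every Sora-treated tumor, at 8464 to 8668 and 5903 to 7385 summed CPM, with Postn called (-0.68). Mast cell and basophil markers (152 to 206 and 156 to 223), endothelial markers (374 to 416 and 302 to 407), and hepatoma markers (5006 to 6604 and 4960.4 to 5223) overlapped between the groups. Hdc, the histamine-forming enzyme of mast cells and basophils, was called at a log2 fold change of 1.01. Of the hepatoma markers, Ttr (-2.15) and Alb (-0.55) fell, and Apoa1 (1.03) and Hnf4a (0.80) rose. Of the called markers, Ttr alone passed in all 6 fits that left out a tumor, and without Sora-treated tumor 4 it was the only one called in edgeR (adjusted p = 0.046). Apoa1 was not called in DESeq2 (adjusted p = 0.063). No marker in the table was at 0 in every tumor.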

How the data were processed

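RNA from 3 control and 3 Sora-treated tumors was sequenced on the BGISEQ-500 platform, with 1 library per tumor. The authors deposited counts of reads per gene, which are not normalized, and FPKM, in which each count is scaled to the length of the gene and the size of the library. The submitters' processing notes name fastp, HISAT2, HTSeq, DESeq2, R 3.2.0, and GRCm39, whereas the methods of the study name Bowtie2 and GRCm38, so the build behind the counts is uncertain. The use of strand is not given in the sources used here, and only 1 axis gene, Stat3, shares annotated bases (72, GENCODE M21) with a neighbor.

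The count table used here holds 5 tumors. For Sora-treated tumor 4, whole reads were recovered by multiplying its FPKM with gene lengths taken from the remaining libraries and with a library size. That size was inferred from the same FPKM, as the total at which the reads came out whole. All 20951 genes with reads and a length came out within 0.001 of a whole number, and 342 genes without a length (512 reads) were left at 0. Each of the other 5 tumors was treated as unknown in turn, and the total and the counts of all genes with a length came back exactly, while 460 to 556 genes per tumor had no length.

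A gene was tested if 3 or more tumors reached 10 counts. The test was the quasi-likelihood F test of edgeR 4.0.16 after TMM scaling in R 4.3.3, with Benjamini-Hochberg adjustment over all 16513 genes and a threshold of 0.05. The standard error is the log2 fold change divided by the square root of F. The biological coefficient of variation was 0.132. At 31073830 reads or more per tumor, counting error weighed most on Il6 and Il19. The labels give 1 library per tumor and no batch, and p-values measure the spread between these tumors. The fits were tested on simulated data.

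The axis genes and the gene lists, which were written from general knowledge, were chosen with earlier results of these data known. Named are the axis genes, listed genes with an adjusted p under 0.05, the highest and lowest gene of each pathway list, the receptor partners of axis genes, and the 5 genes most like Il24 and Osm. Clcf1, Il10, Bcl2l1, Pim3, Timp1, Saa3, Afp, Ahsg, the uncalled neutrophil markers, and per-tumor values of Lifr were added after their values were seen. Of the genes first listed, 2 are not reported here and are in no list, sum, or count of pathway genes. Alternatives were DESeq2 1.42.0, voom of limma 3.58.1, 2 other scalings, 2 other filters, a replicate block, leaving out each tumor, and limma on FPKM values with a pseudocount of 1 or 0.1 before taking log2, restricted to genes that reached 1 FPKM in 3 tumors, and with a pseudocount of 1 without that restriction.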

Additional observations from a re-analysis of the deposited data

How the results depend on the processing

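No axis gene changed direction under any alternative run. With DESeq2, Lif (0.40) and Socs3 (0.45) passed the threshold, and without a filter on low counts Lif (0.40), Il11 (0.66), Il19 (2.10), and Socs3 (0.45) did. Without Sora-treated tumor 3, Lif (0.48), Il11 (0.96), and Socs3 (0.59) passed in edgeR. Log2 fold changes on leaving out each tumor ranged from 0.34 to 0.48 for Lif, 0.22 to 0.96 for Il11, and 0.33 to 0.59 for Socs3. Il19 was not tested without a Sora-treated tumor, since it then failed the filter. With log2(FPKM + 1), the log2 fold change of Il24 was 1.20, both with a filter and for all genes, and for all genes Il6 was at 0.38 and Il19 at 0.43, since the pseudocount is large beside their FPKM.

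Over all genes, edgeR called 321 higher and 222 lower. DESeq2 called 619 and 575, no filter gave 570.0 and 577, and limma gave 136 and 62 with log2(FPKM + 1), 21 and 17 with log2(FPKM + 0.1), and 0 and 0 for all genes, with 1604 and 1649 at an unadjusted p under 0.05. Leaving out each tumor gave 4 to 574 higher and 1 to 571 lower. Of the pathway genes, 4 were called higher, beside 10 with DESeq2, 13 without a filter, 1 with log2(FPKM + 0.1), and 0 in limma for all genes (17 unadjusted). Lower were 4, beside 2 with log2(FPKM + 1), 0 with log2(FPKM + 0.1) (10 unadjusted), and 0 in limma for all genes (13 unadjusted). Leaving out each tumor gave 0 to 13 higher and 0 to 6 lower, both 0 without Sora-treated tumor 4. The causes were not tested.

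The groups share the replicate numbers 3 and 4, but tumors with the same number did not deviate together (r = -0.033 and -0.074 over 16513 genes). The labels give no batch, and these values cannot show whether such tumors shared anything besides the number. With the replicate number as a block, edgeR called 80 genes higher and 45 lower, and 1 and 2 of the pathway genes. The log2 fold change in that fit was 0.16 for Il11 and 0.69 for Il6. Control tumor 1 and Sora-treated tumor 2 are each alone in a block there, so the difference comes only from tumors 3 and 4 of each group. With 3 tumors per group and few reads, Il6 and Il19 are the least precise values.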
